A study of Mus musculus with 9 samples.

Results

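Genomic imprinting leaves 1 parental copy of a gene silent, and the genes it acts on gather in clusters in which a paternally expressed growth promoter often lies beside a maternally expressed growth restrainer. In long-term hematopoietic stem cells (LT-HSCs), several imprinted genes are known as regulators of quiescence. Cdkn1c encodes the cyclin-dependent kinase inhibitor p57, H19 is a long noncoding RNA that restrains signaling from IGF2 through the IGF1 receptor, and Grb10 encodes an adaptor that binds the insulin and IGF1 receptors upstream of class IA phosphatidylinositol 3-kinase (PI3K). Described here are 10 such genes of the 47643 genes in the count table, chosen by symbol as imprinted regulators of growth. They are Cdkn1c, Grb10, Igf2, H19, Dlk1, Meg3, Ndn, Peg3, Mest and Plagl1. All 10 were in the table, 9 had at least 1 count and 6 had enough counts to be tested between genotypes.

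The libraries were made from donor-derived LT-HSCs, sorted as lineage-negative cells with cKit, Sca1 and CD150 but without Flk2 and CD48, of lethally irradiated B6.SJL mice that had received whole bone marrow of C57BL/6 donors. TKO donors were lox/lox for Pik3ca and for Pik3cb, were Pik3cd-/- in the germline and carried Mx1-Cre. Donors called δKO had the same floxed and deleted alleles without Cre, so that only p110δ was lost. WT donors carried Mx1-Cre with wild-type Pik3c genes. Mice of all 3 genotypes were given pIpC, which induces Cre from the interferon-responsive Mx1 promoter, as 2 injections of 250 µg spaced by 48 hours, and cells were harvested 4 weeks later. Mx1-Cre also acts outside the blood, and the transplant limits the deletion to donor cells, but cells of the 7 recipients of a group were pooled before staining. There were 3 libraries for each genotype and 9 in all. They are called replicates in the labels, but since the cells of a group were pooled, a p-value measures only the spread between libraries, which may be technical. The number that 1 δKO library has in the count table is on no label, and that library is therefore named the unnumbered one.

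The libraries held 31300343 to 60386097 reads on genes. Levels are given in CPM, the count relative to the library total after scaling with edgeR's TMM factors, and 1 read corresponded to 0.0168 to 0.0399 CPM. Fewer genes were detected in δKO replicate 1 (18180) and the unnumbered δKO library (18500) than in the other libraries (19703 to 22703). All 10 HSC markers were detected in every library (Kit at 429 to 949 CPM), but so were Flt3 (7.06 to 115 CPM) and Cd48 (5.82 to 23.2 CPM), whose proteins the sort excludes. The summed level of 10 neutrophil genes was 5257 to 12283 CPM in WT, 276 to 12124 CPM in δKO and 168 to 3247 CPM in TKO libraries, and its part in the results below was not tested. Several imprinted genes are abundant in stromal cells. Of 15 stromal markers, Cxcl12 (up to 9.18 CPM), Pdgfrb (0.639 to 13.3 CPM), Col1a2 (up to 12.3 CPM) and Runx2 were found in every library, 8 in some libraries at no more than 4.32 CPM, and Lum, Adipoq and Sp7 in none. The sum over the list without Runx2, which HSCs also express, was 8.78 to 23.0 CPM. In bulk RNA, fewer cells of a type and less RNA per cell cannot be told apart. The targeted Pik3cb was at 25.5 to 33.9 CPM in TKO, 33.2 to 101 CPM in δKO and 44.6 to 63.6 CPM in WT libraries, and Pik3cd was at 71.2 to 73.5 CPM in TKO, 38.5 to 91.2 CPM in δKO and 98.2 to 139 CPM in WT. Pik3ca was at 52.8 to 68.0 CPM in TKO, 41.3 to 88.2 CPM in δKO and 45.8 to 65.0 CPM in WT, and since these counts cover whole genes and not the deleted exons, they do not measure excision.

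The members differed in level over several orders of magnitude. Compared per kilobase of exon, the mean over 9 libraries was 10.5 ± 5.07 CPM (SD, n = 9) for Grb10, 2.40 ± 4.04 for Cdkn1c, 1.28 ± 1.76 for Mest, 0.183 ± 0.168 for Ndn and 0.132 ± 0.287 for Igf2. The other 5 members were below 0.04 CPM per kilobase, in the order Dlk1 (0.0352 ± 0.0499), Plagl1 (0.0197 ± 0.0293), H19 (0.0134 ± 0.0402), Meg3 (0.0126 ± 0.0196) and Peg3 (0). Grb10 had a higher mean per kilobase than 85.5% of the 27808 genes ranked, Cdkn1c than 62.6%, Mest than 54.2%, and each of the other 7 than at most 32.7%. Only the step from Grb10 to Cdkn1c exceeded the spread, and Grb10 was higher in 8 of the 9 libraries, the exception being TKO replicate 2. All further neighbors in this order differed by less than the SD of their values.

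**Figure D1:**
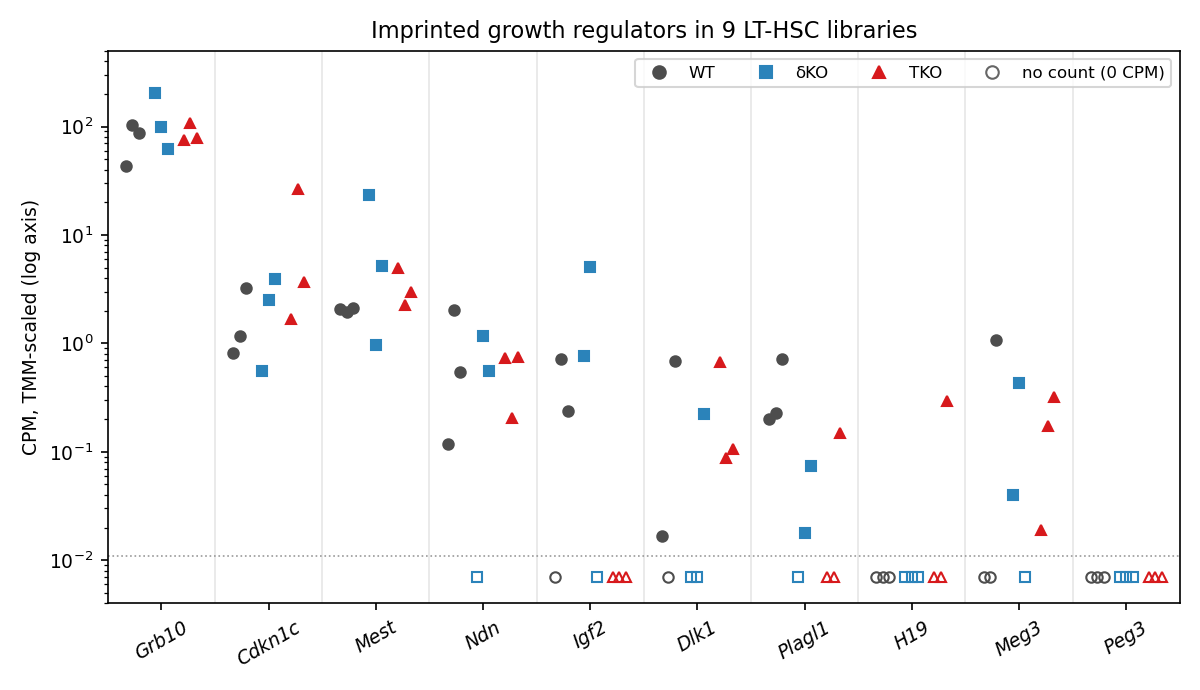
CPM on a log axis (TMM-scaled) of the 10 imprinted genes in each of the 9 libraries, ordered by level per kilobase, with 1 symbol per library and open symbols below the dotted line for libraries without a count. Grb10 lies between 42.9 and 205 CPM throughout, Cdkn1c and Mest each have 1 library far above the others, and Igf2 has no count in the 3 TKO libraries.

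Because Grb10 was the most abundant member, the 250 bases before each of its RefSeq starts are shown (build GRCm38.p6). The gene lies at chr11:11930508-12038683 on the minus strand. The counts cover the whole gene and do not separate its starts. Each window is given 5′ to 3′ on the strand of the gene, with every CG dinucleotide, the site of DNA methylation, in capitals. The window of the outer start, chr11:12037421-12037670, holds 40 CG dinucleotides, a number reached by 1.31% of the 32851 windows of RefSeq starts, and the window of the inner start, chr11:12027972-12028221, holds 8, a number reached by 43% of them.
Grb10 outer start: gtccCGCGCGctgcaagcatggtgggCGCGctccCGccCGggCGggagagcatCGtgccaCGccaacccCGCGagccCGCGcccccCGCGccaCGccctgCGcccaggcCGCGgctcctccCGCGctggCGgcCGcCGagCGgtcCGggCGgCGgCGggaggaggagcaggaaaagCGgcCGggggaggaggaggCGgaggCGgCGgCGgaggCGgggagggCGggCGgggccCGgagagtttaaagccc
Grb10 inner start: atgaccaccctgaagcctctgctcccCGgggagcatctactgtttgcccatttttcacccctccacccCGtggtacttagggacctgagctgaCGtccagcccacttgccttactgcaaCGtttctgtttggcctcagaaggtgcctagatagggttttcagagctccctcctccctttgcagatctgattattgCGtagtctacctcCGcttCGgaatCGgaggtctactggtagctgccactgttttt

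Plagl1 encodes a zinc finger protein that binds GC-rich DNA and is known as a regulator of other imprinted genes, so its motif GGGGGGCC was searched for in the same windows, on both strands. It was found before starts of Mest and Igf2. Of 15 windows of 8 members, 3 held it, 2 of these being nearly the same Mest window, against 1.03% of all 32851 windows. A FOXO motif (GTAAACA, both strands) was in 1 of the 15, that of Dlk1, and in 3.17% of all windows. These are matches of letters and not measured binding sites, and windows for Cdkn1c and H19 were not used here. In the windows below, the capitals mark the match, which both times lies on the opposite strand. They are chr6:30737800-30738049 on the plus strand for Mest and chr7:142657497-142657746 on the minus strand for Igf2.
Mest inner start: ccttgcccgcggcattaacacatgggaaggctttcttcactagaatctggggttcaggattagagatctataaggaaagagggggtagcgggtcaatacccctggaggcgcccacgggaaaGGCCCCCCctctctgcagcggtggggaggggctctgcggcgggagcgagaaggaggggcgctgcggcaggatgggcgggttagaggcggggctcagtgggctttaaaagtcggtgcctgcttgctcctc
Igf2 inner start: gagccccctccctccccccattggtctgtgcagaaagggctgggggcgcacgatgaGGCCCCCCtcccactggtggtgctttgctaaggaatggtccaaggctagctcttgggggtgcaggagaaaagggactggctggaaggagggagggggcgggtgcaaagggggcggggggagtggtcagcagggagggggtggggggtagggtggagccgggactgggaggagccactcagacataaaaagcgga

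Grb10 was expressed in every library, and no difference between genotypes passed the test. In libraries 1, 2 and 3 of WT it was at 42.9, 103 and 87.6 CPM. In δKO replicate 1, replicate 2 and the unnumbered library it was at 205, 98.2 and 61.6 CPM, and in TKO replicates 1 to 3 at 74.9, 108 and 78.9 CPM. The ranges of all 3 genotypes overlap, and δKO replicate 1 alone is higher than every other library. The means were 77.7 ± 31.1 CPM in WT, 122 ± 74.7 CPM in δKO and 87.1 ± 17.8 CPM in TKO (SD, n = 3 each). The log2 fold change was 0.17 for TKO against WT (SE 0.44, 95% interval -0.79 to 1.12, edgeR adjusted p = 1.00) and -0.48 for TKO against δKO (SE 0.44, interval -1.44 to 0.48, adjusted p = 0.726). For δKO against WT it was 0.65 (SE 0.44, interval -0.31 to 1.61, adjusted p = 0.754). Without δKO replicate 1 the last 2 values became 0.12 and 0.04. That of TKO against WT became -0.13 without WT replicate 1 and -0.017 without TKO replicate 2. The directions of TKO against WT and against δKO thus each turned when a single library was left out. Both intervals against WT include a level 2-fold higher, which these libraries therefore do not exclude.

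Cdkn1c, at chr7:143458339-143461050 on the minus strand, is maternally expressed, and its product p57 holds HSCs out of the cell cycle. In WT it was at 0.806, 1.16 and 3.22 CPM (48, 61 and 135 reads), in δKO at 0.558, 2.49 and 3.94 CPM (14, 140 and 107 reads, the unnumbered library last), and in TKO at 1.68, 26.6 and 3.65 CPM (88, 916 and 172 reads). TKO replicate 2 stands apart and holds 60.3% of the CPM summed over all libraries, while the other 2 TKO libraries lie within the range of the controls. The TKO mean of 10.6 ± 13.9 CPM (SD, n = 3) compares with 1.73 ± 1.31 CPM in WT and 2.33 ± 1.70 CPM in δKO. TKO against WT gave a log2 fold change of 2.62 (SE 1.18, interval 0.05 to 5.19, edgeR adjusted p = 1.00), which became 0.62 without TKO replicate 2. TKO against δKO gave 2.19 (SE 1.16, adjusted p = 0.540) and 0.19 without that library, and δKO against WT 0.43 (SE 1.11, adjusted p = 0.959). Another annotated gene on the opposite strand, Gm44732, covers 30.7% of the exon bases of Cdkn1c but had no count. In TKO replicate 2, the summed neutrophil genes were at 3247 CPM against 168 and 928 CPM in the other TKO libraries, and the sum of stromal markers without Runx2 was 9.13 CPM against 17.5 and 12.1 CPM.

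**Figure D2:**
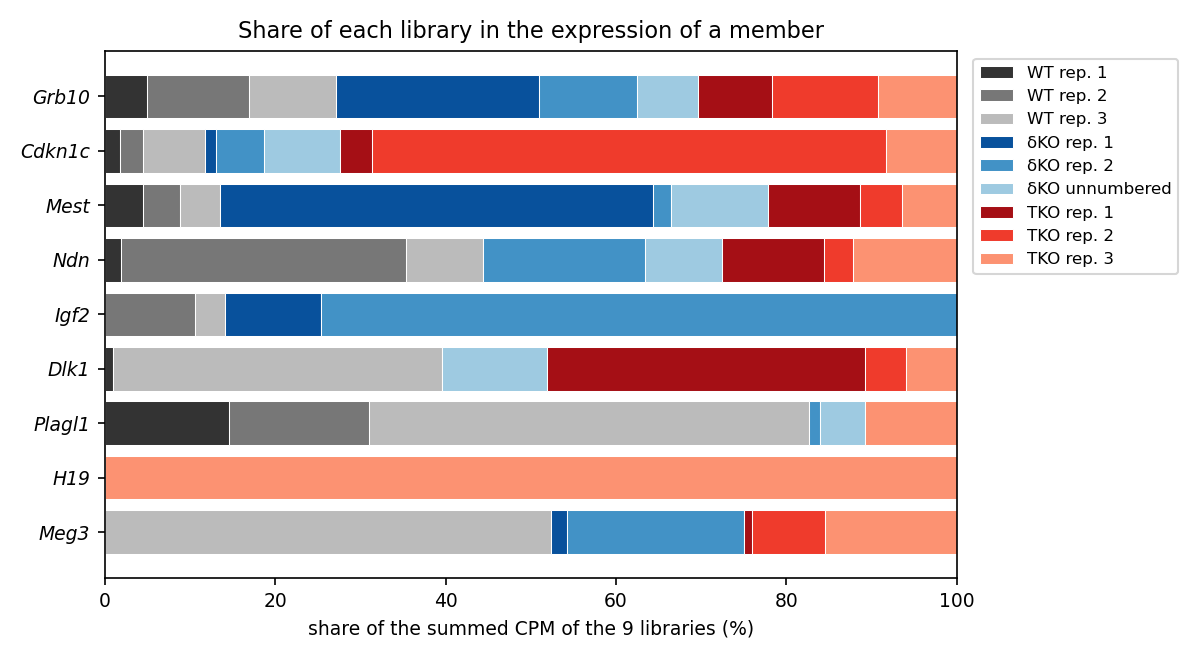
Share of each library in the CPM summed over the 9 libraries, in percent, for the 9 members with at least 1 count. 1 library holds 60.3% of Cdkn1c (TKO replicate 2), 74.7% of Igf2 (δKO replicate 2) and 50.9% of Mest (δKO replicate 1), and 23.9% of Grb10.

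Igf2 encodes the fetal growth factor IGF2 and is expressed from the paternal copy, next to the maternally expressed H19 on chromosome 7. It had 0, 38 and 10 reads in WT and 19, 284 and 0 reads in δKO (0, 0.721 and 0.239 CPM, and 0.758, 5.06 and 0 CPM), and no read in any of the 3 TKO libraries. The TKO range thus meets that of WT and δKO, each of which has 1 library at 0. Set against the 3 reads that a count of 0 allows over the 3 TKO libraries together, Igf2 was at least 13.9-fold lower in TKO than in WT and at least 125-fold lower than in δKO, or 16.2-fold without δKO replicate 2, which holds 74.7% of its CPM. The bound against WT became 4.401-fold without WT replicate 2, which holds 38 of its 48 WT reads. These bounds cover counting error only. The edgeR test, which takes in the spread between libraries, gave an adjusted p of 1.00 for TKO against WT and of 0.465 for TKO against δKO. DESeq2 gave an adjusted p of 0.0546 for the latter. Igf2 passed the low-count filter only through reads in WT and δKO, so these tests are no independent support for a lower level in TKO. For δKO against WT, the log2 fold change was 2.59 (SE 2.14, adjusted p = 0.809) and 0.24 without δKO replicate 2. In the annotation, 62.8% of the exon bases of Igf2 (chr7:142650766-142666816, minus strand) are shared with Gm49394, and how the authors' counting treated reads there is not known.

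H19 (chr7:142575529-142578143, minus strand) was found in 1 library, with 14 reads in TKO replicate 3 (0.297 CPM) and none in the other 8. A count of 0 allows up to 3 reads, or 0.0504 to 0.120 CPM depending on the library. Pooled over its libraries, TKO was at least 5.37-fold higher than WT and at least 3.78-fold higher than δKO, a difference that rests on that library alone. In an exact two-sided permutation test over the libraries, p was 1 in each comparison, where 3 libraries against 3 cannot go below 0.1. Ins2, on the other side of Igf2, had no count in any library.

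Dlk1 and Meg3 form a like pair on chromosome 12. Dlk1 is paternally expressed and encodes a membrane protein related to Notch ligands, and Meg3 is a maternally expressed noncoding RNA. Dlk1 (chr12:109452823-109463336) had 1, 0 and 29 reads in WT, 0, 0 and 6 in δKO, and 35, 3 and 5 in TKO, or at most 0.692 CPM. Meg3 (chr12:109541001-109571726) had 0, 0 and 45 reads in WT, 1, 24 and 0 in δKO, and 1, 6 and 15 in TKO, or at most 1.07 CPM. In both genes WT replicate 3 had the highest CPM, and the genotypes overlap. Dlk1 had too few reads to be tested, and the exact permutation p was 0.6 for TKO against WT. For Meg3, edgeR gave a log2 fold change of -1.05 for TKO against WT (interval -5.70 to 3.60, adjusted p = 1.00), 0.07 for TKO against δKO (interval -4.60 to 4.75) and -1.13 for δKO against WT (interval -5.78 to 3.53). Without WT replicate 3, the other 2 WT libraries are at 0 and the sign of both values against WT turned. Of the other genes of this cluster, Rtl1, Mirg and Dio3 had no count, and the noncoding RNA Rian was at 0.598 to 4.08 CPM.

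Mest (chr6:30723547-30748465, plus strand) is paternally expressed and encodes a protein of the α/β-hydrolase fold. It was at 2.07, 1.95 and 2.13 CPM in WT, at 23.2, 0.962 and 5.20 CPM in δKO and at 4.91, 2.24 and 2.95 CPM in TKO. All 3 TKO libraries are above all 3 WT libraries, while δKO spans both. Among the tested members, TKO and WT libraries did not overlap for Mest alone, and they did not overlap for 14.4% of all tested genes. For the other comparisons every tested member overlapped. For TKO against WT the log2 fold change was 0.72 (SE 0.98, interval -1.43 to 2.87, edgeR adjusted p = 1.00), and for TKO against δKO -1.54 (SE 1.00, adjusted p = 0.610). For δKO against WT it was 2.25 (SE 1.02, interval 0.02 to 4.49, adjusted p = 0.699). δKO replicate 1, in which the fewest genes were detected, holds 50.9% of the summed CPM. Without it, the last 2 values became 0.13 and 0.58, and with the detected genes per library as a covariate 0.57 and -0.22. The value for TKO against WT became 0.34 without TKO replicate 1 and 0.35 with that covariate. On the opposite strand, Copg2 covers 23.1% of the exon bases of Mest and was at 45.3 to 92.0 CPM, and since the counting is not stated to use strand, reads in the shared stretch cannot be assigned with certainty. Copg2 was at 54.3 CPM in δKO replicate 1, where Mest was highest.

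Mest also hosts a microRNA. Its mature arms are shown because reads on the host gene do not measure them (RefSeq, GRCm38.p6), with the seed, bases 2 to 8, in capitals. The hairpin gene Mir335 had 4 reads in 1 library, and Mir675 in H19 and Mir483 in Igf2 had none. Mature microRNAs were not measured.
mmu-miR-335-5p: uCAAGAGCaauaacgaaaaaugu
mmu-miR-335-3p: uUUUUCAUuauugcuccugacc

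Ndn, Plagl1 and Peg3 are paternally expressed. Ndn encodes necdin, a growth suppressor known to limit HSC cycling (chr7:62346569-62350262, plus strand), and was at 0.118, 2.03 and 0.549 CPM in WT, 0, 1.16 and 0.553 CPM in δKO, and 0.727, 0.203 and 0.742 CPM in TKO. The genotypes overlap, and the log2 fold changes of -0.68, -0.04 and -0.64 (TKO against WT, TKO against δKO, δKO against WT) each had an SE of about 1.59. Plagl1 (chr10:13060504-13131694, plus strand) had 12, 12 and 30 reads in WT, 0, 1 and 2 in δKO, and 0, 0 and 7 in TKO. All WT libraries, at 0.202, 0.228 and 0.716 CPM, are above all δKO libraries, at 0 to 0.0737 CPM, and above all TKO libraries, at 0 to 0.148 CPM. With 64 reads in all, Plagl1 was below the limit for the edgeR test, and the exact two-sided permutation p was 0.1 for TKO against WT and for δKO against WT, the smallest that 3 against 3 libraries can give (0.45 after adjustment over 9 tests of Dlk1, H19 and Plagl1). Both comparisons use the same WT libraries. Peg3, a zinc finger gene at chr7:6703892-6730431, had no read in any library.

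Over the tested members, none was called in any comparison, a call being an adjusted p under 0.05 with a change of more than 2-fold. In edgeR, 0 of 6 were called for TKO against WT, where 0.00549% of 18205 genes were called, 0 of 6 for TKO against δKO (0% of all genes) and 0 of 6 for δKO against WT (0.00549%). DESeq2 called 0 of 6 as well, where it called 0.330%, 1.80% and 0.423% of all genes. Fitted to only the groups compared, DESeq2 also called none of the 4, 4 and 5 members then tested, against 2.36%, 0.489% and 0.284% of all genes. At an unadjusted p under 0.05, Cdkn1c was higher and Igf2 lower in TKO than in WT (4.19% of all genes passed), Igf2 lower in TKO than in δKO (10.2%), and Mest higher in δKO than in WT (7.01%). Igf2 had no read in TKO and passed the low-count filter only through WT and δKO libraries. Its values here are therefore descriptions and no support for a difference. Groups that did not overlap were seen for 1 of 6 members for TKO against WT (Mest) and for none in the other comparisons, against 14.4%, 11.7% and 11.5% of all tested genes. The median log2 fold change of the 6 was -0.26, -0.26 and 0.54 in the same order of comparisons, beside 0.02, -0.06 and 0.05 over all tested genes, and each median is the middle of members of both signs (3 higher and 3 lower, 2 and 4, and 4 and 2). The medians are not stable, as that for TKO against WT became 0.55 without WT replicate 2, that for TKO against δKO 0.19 without δKO replicate 2, and that for δKO against WT 1.77 without WT replicate 3. The members that passed the filter are those with more reads, and the other 4 are given by their values above.

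**Figure D3:**
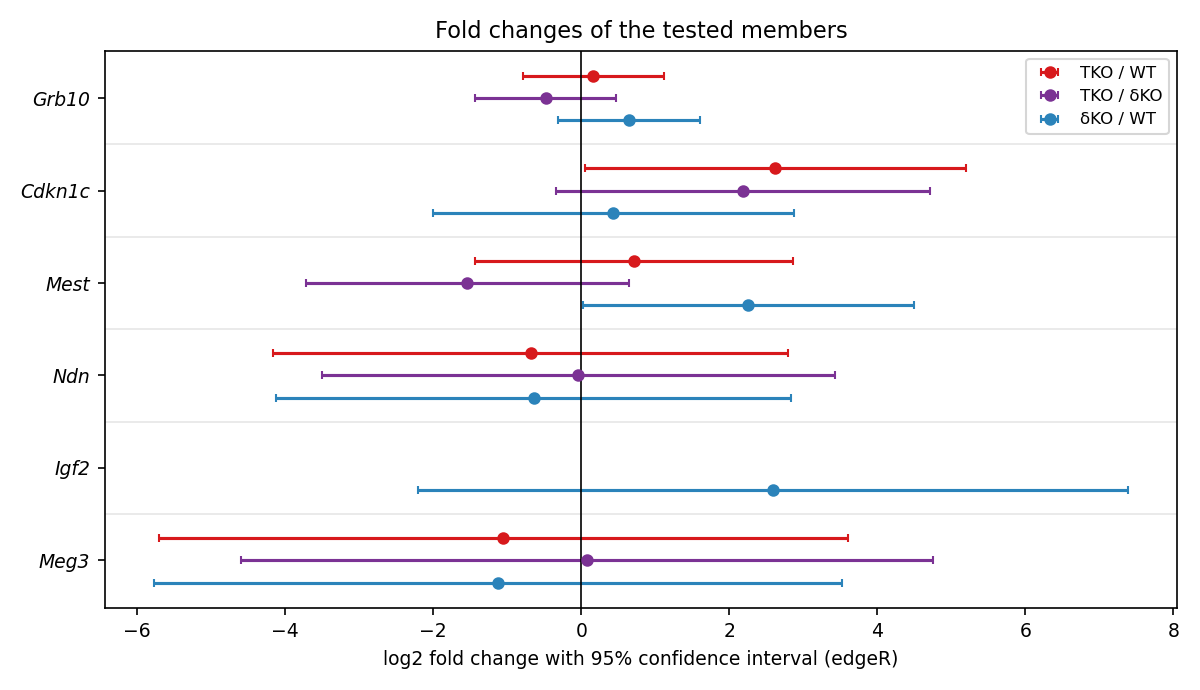
Log2 fold changes (points) with 95% confidence intervals from edgeR (bars) for the 6 tested members in the 3 comparisons, without Igf2 where TKO has no count. The intervals of Grb10 are the shortest, those of Cdkn1c for TKO against WT and Mest for δKO against WT end just above 0, and all others cross 0.

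How far the libraries of 1 genotype differ from each other also separated the members. The SD of log2 CPM within genotypes was computed with a small offset added to each CPM. It was 0.66 for Grb10, 1.33 for Mest, 1.49 for Meg3, 1.52 for Cdkn1c, 1.53 for Ndn and 1.87 for Igf2. The median over all tested genes was 0.86. The offset enters the values of Igf2, Meg3 and Ndn, which had no count in 5, 3 and 1 of the libraries. Grb10 was thus less variable than the median gene, with 39.0% of genes below it. The other 5 were more variable, with 71.0% to 90.5% of genes below them. The genes were not matched for level, and these 5 members have lower levels than Grb10. For the median gene, 23.2% of the summed CPM came from 1 library. Pearson's r of log2 CPM, given as a description over libraries that share genotype and depth, ranged from -0.67 for Ndn and Mest to 0.56 for Igf2 and Grb10 (Spearman's rho -0.48 and 0.70).

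**Figure D4:**
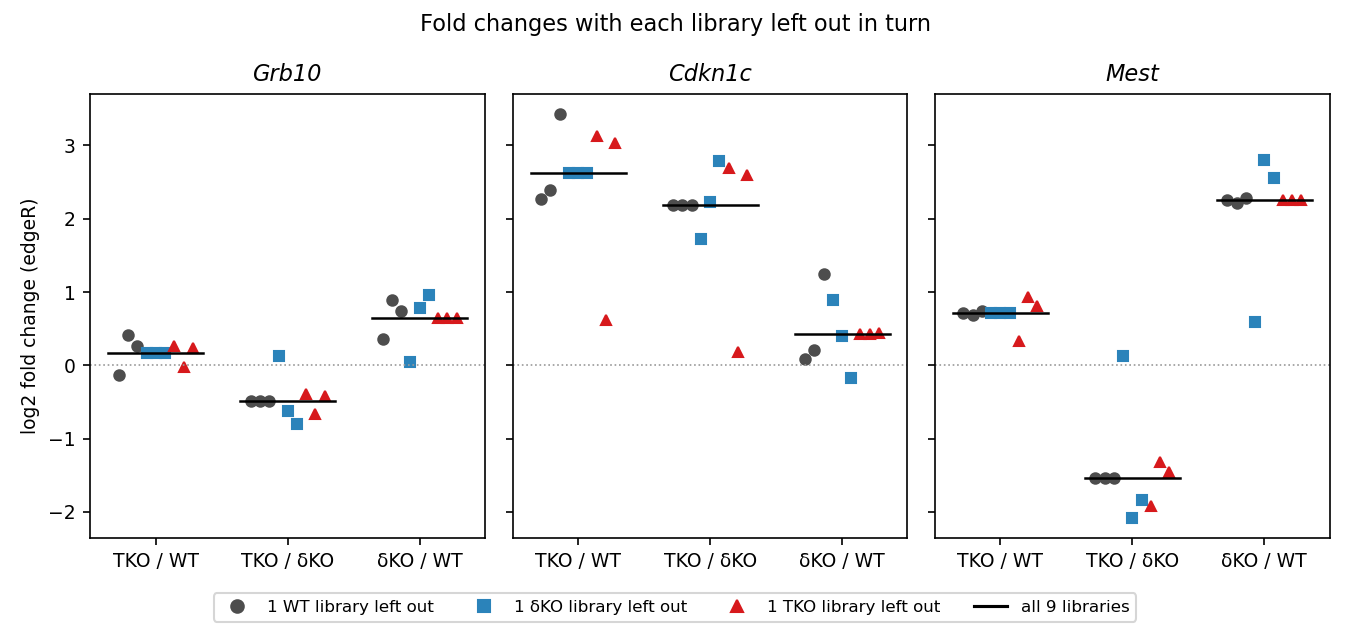
Log2 fold changes of Grb10, Cdkn1c and Mest from edgeR with each library left out in turn (symbols, by the genotype of the library left out) and with all 9 libraries (black lines). Leaving out TKO replicate 2 takes Cdkn1c from 2.62 to 0.62 for TKO against WT, and leaving out δKO replicate 1 takes Mest from 2.25 to 0.58 for δKO against WT.

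The genes whose pattern over the libraries was most like that of a member were listed for the 3 members with a mean of at least 1 CPM. For Cdkn1c they were Pcmtd2 (r = 0.93), Ssu72 (0.93) and Rtp4 (0.91) among 10754 genes whose mean reached 5 CPM. They were Csnk2a1 (0.98), Cstf3 (0.97) and Nip7 (0.96) for Grb10, and Iqsec1 (0.99), Agap2 (0.98) and Trpm7 (0.97) for Mest. The highest library was TKO replicate 2 for Cdkn1c and δKO replicate 1 for Grb10 and Mest, and r was over 0.8 for 71 genes with Cdkn1c, 310 with Grb10 and 553 with Mest.

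Of 38 further imprinted genes that lie near the members or are often listed with them, 24 were tested, and edgeR called none in any comparison. For TKO against WT, DESeq2 called none on all 9 libraries and 2 (Igf2r and Sgce) on the groups compared, a fit that called 2.36% of all genes. For TKO against δKO it called Igf2r on all 9 libraries, where it called 1.80% of all genes, and none on the groups compared. For TKO against WT, 14 were higher and 10 lower, with a median log2 fold change of 0.27. Against δKO, 10 were higher in TKO and 14 lower (median -0.22), and for δKO against WT 15 were higher and 9 lower (median 0.30). Igf2r, the maternally expressed receptor that clears IGF2 from the cell surface, had the smallest p. It was at 31.6, 23.3 and 42.1 CPM in WT, 28.1, 20.8 and 71.1 CPM in δKO, and 6.27, 11.9 and 16.3 CPM in TKO, so that all TKO libraries lie below all others. The log2 fold change was -1.49 against WT (SE 0.54, edgeR adjusted p = 1.00) and -1.80 against δKO (SE 0.54, adjusted p = 0.465), the latter being -1.09 without the unnumbered δKO library. The adjusted p of DESeq2 against WT was 0.3597 on all 9 libraries and 0.0211 on only these groups, and against δKO 0.0496 and 0.192, so that 1 of the 2 fits called Igf2r in each comparison. Sgce was at 17.1 to 26.3 CPM in TKO and 5.06 to 9.16 CPM in WT (log2 fold change 1.55, SE 0.71, edgeR adjusted p = 1.00, and with DESeq2 0.609 on all 9 libraries and 0.00826 on only these groups), and Nnat at 0.116 to 0.975 CPM in TKO and 2.24 to 2.79 CPM in WT (-2.52, SE 1.17, and -3.91 without TKO replicate 3). In δKO, Nnat was at 1.16, 0.944 and 3.10 CPM, which overlaps both. Against δKO, Gatm was at 28.4 to 82.9 CPM in TKO and 48.8 to 206 CPM in δKO (log2 fold change -1.27, SE 0.52, and -0.59 without the unnumbered δKO library), and Zrsr1 at 15.96 to 27.1 CPM against 6.20 to 14.3 CPM (1.11, SE 0.53). For δKO against WT, the smallest p-values were those of Sgce (log2 fold change 1.72), Peg10 (1.69) and Impact (0.84), each highest in δKO replicate 1. Without it they became 0.78, 0.15 and 0.037. In the cluster of Cdkn1c, the noncoding RNA Kcnq1ot1, which is expressed from the paternal copy and silences Cdkn1c in cis, was at 320 to 862 CPM in all libraries, and Kcnq1 had counts in 1 library only (0.0955 CPM). Mkrn3, from the cluster of Ndn, was at 24.4 CPM in TKO replicate 2 and at most 0.191 CPM in the others, a gene named after its values were seen.

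Of 22 genes of IGF and insulin signaling, 13 were tested, and none was called by edgeR or by DESeq2 on all 9 libraries. DESeq2 on only the groups compared called Irs2 for TKO against WT, with 2.36% of all genes. Both receptors were found throughout, with Igf1r at 433 to 611 CPM and Insr at 109 to 271 CPM in every library. The ligand Igf1 was near the limit of detection (at most 0.358 CPM) except for 9.01 CPM in TKO replicate 2. Irs2, a docking protein that links these receptors to PI3K, was at 93.1 to 147 CPM in TKO, 37.9 to 69.6 CPM in WT and 65.1 to 117 CPM in δKO. Its log2 fold change was 1.09 for TKO against WT (SE 0.33, edgeR adjusted p = 1.00, and with DESeq2 0.272 on all 9 libraries and 0.0201 on only these groups) and 0.71 for δKO against WT (SE 0.33, adjusted p = 0.699), the latter being 0.43 without the unnumbered δKO library, in which Irs2 was highest among δKO. Grb14 and Grb7, which encode adaptors related to Grb10, reached at most 1.27 and 5.67 CPM. Grb14 was below 0.06 CPM in all TKO libraries, and Grb7 was at 0, 5.67 and 0.445 CPM in TKO and had no count in δKO. Shc1 (log2 fold change -0.81 for TKO against δKO, SE 0.40) and Hmga2 (0.90 for δKO against WT, SE 0.65) completed the smallest p-values of this list, and became -0.48 and -0.30 without δKO replicate 1. Irs1, Igfbp5, Igfbp6 and Lin28b were each found in a few libraries at no more than 1.29 CPM, and Igfbp1, Igfbp2 and Igfbp3 in none.

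**Figure D5:**
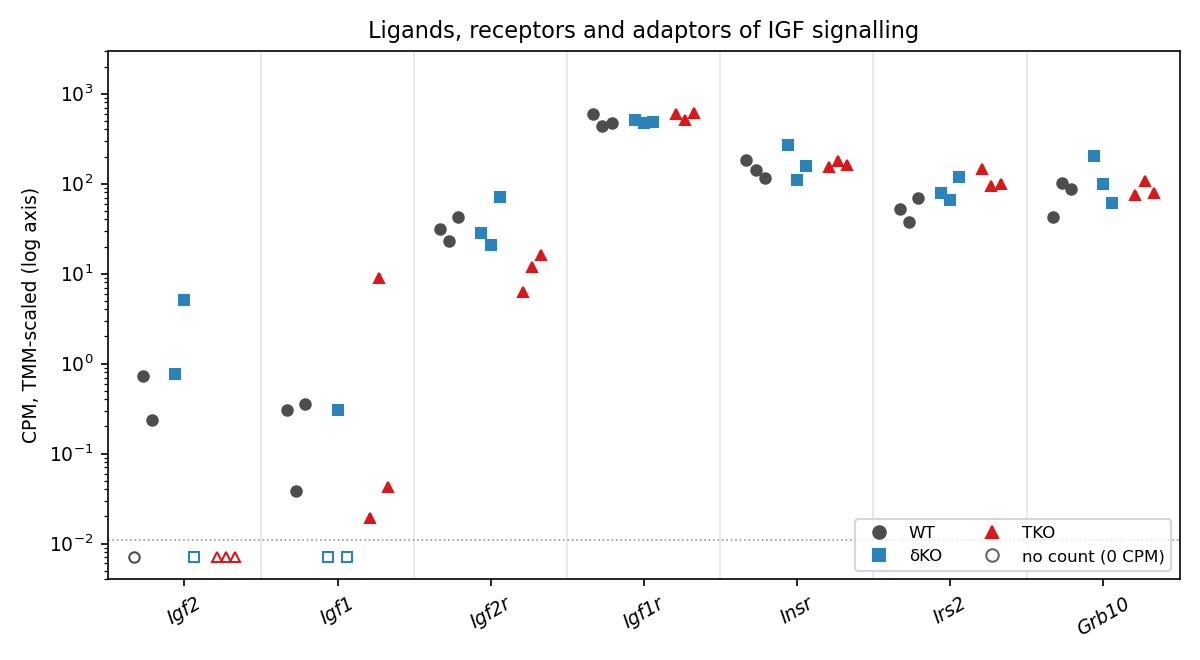
CPM on a log axis (TMM-scaled) of ligands (Igf2, Igf1), receptors (Igf2r, Igf1r, Insr), the docking protein Irs2 and the adaptor Grb10 in each library, with open symbols for libraries without a count. Igf2r is lower in the 3 TKO libraries (6.27 to 16.3 CPM) than in all control libraries, and Irs2 is higher in TKO (93.1 to 147 CPM) than in WT.

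Cdkn1c belongs with the genes of HSC quiescence, of which a list of 22 was tested and none was called by edgeR or by DESeq2 on all 9 libraries. DESeq2 on only the groups compared called Cdkn2c for TKO against WT, another kinase inhibitor gene, which was at 2.05 to 3.92 CPM in TKO and 9.67 to 11.9 CPM in WT, a gene named after its values were seen. In δKO it was at 0.199, 15.96 and 3.83 CPM, which runs from below every TKO library to above every WT library, and that fit called 2.36% of all genes. Per kilobase of exon, the level of the kinase inhibitor Cdkn1b was 13.7 ± 3.57 CPM (SD, n = 9) and that of Cdkn1a 9.44 ± 5.27 CPM, beside 2.40 ± 4.04 CPM for Cdkn1c. Mki67, a gene of cycling cells, was at 876 to 941 CPM in TKO, 1264 to 1645 CPM in WT and 1263 to 1825 CPM in δKO, with a log2 fold change of -0.66 against WT (SE 0.21, edgeR adjusted p = 1.00) and -0.74 against δKO (SE 0.21, adjusted p = 0.465). Cdk6, a kinase of the G1 phase, was at 1658 to 2257 CPM in TKO and 2425 to 3682 CPM in the controls (log2 fold change -0.67 against WT and -0.63 against δKO, SE 0.23 each). Tek was at 27.1 to 40.5 CPM in TKO and 12.0 to 26.2 CPM in WT (0.81, SE 0.42), and at 30.6 to 61.3 CPM in δKO (1.07 against WT, SE 0.42). For δKO against WT, Foxo1 had the smallest p of the list (1.71, SE 0.63), ahead of Tek and Txnip (0.93, SE 0.39). Foxo1 was at 187 CPM in δKO replicate 1 and at 20.7 to 34.9 CPM in every other library, so that without it the value was 0.23, while that of Txnip was 0.46 and that of Tek 0.66. The summed HSC markers were at 889 to 1058 CPM in TKO, 653 to 1412 CPM in δKO and 623 to 725 CPM in WT. Of these markers, Kit, Slamf1, Fgd5, Ctnnal1 and Tie1 did not overlap between TKO and WT, while Ly6a, Procr, Hoxb5, Fgfr3 and Esam did. Lymphoid markers summed to 36.7 to 78.4 CPM in TKO, 15.1 to 200 CPM in δKO and 89.1 to 242 CPM in WT. Of that list, Nkg7 alone separated TKO (16.5 to 65.4 CPM) from WT (73.4 to 231 CPM). Endothelial markers summed to 5.49 to 15.9 CPM in TKO, 0.811 to 10.6 CPM in δKO and 2.07 to 4.11 CPM in WT. These sums, like that of the neutrophil genes, separate TKO from WT as Igf2r, Sgce, Irs2, Mki67, Cdk6 and Tek do. Those genes were named for their small p-values, and other listed genes also separated. TKO and WT did not overlap for 14.4% of all tested genes. The part of the sums in these differences was not tested. The values of TKO against WT and TKO against δKO share the TKO libraries and are not independent of each other.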

How the data were processed

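The authors trimmed reads with Trim Galore 0.3.7, checked them with FastQC 0.11.4, aligned them to mm10 with STAR 2.5.1b (versions from the submitters' processing notes) and deposited whole-number read counts for 47643 genes in 9 libraries, made from RNA amplified before library construction. The annotation, the use of strand and the joining of technical runs are not given in the sources used here. A normalized signal that the authors deposited beside the counts served as an alternative. In the 8 columns that match a raw column by name it was the count divided by 1 size factor per library, and this was not checked for the remaining δKO column. Each column was mapped to its genotype by name.

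Counts were analyzed in R 4.3.3 with edgeR 4.0.16. Genes were kept by filterByExpr (count minimum 10, minimum total 15), which left 18205, scaled with TMM factors and fitted with the quasi-likelihood test, in which all 9 libraries entered, each genotype had its own mean and no block was used. P-values were Benjamini-Hochberg adjusted over all genes tested, and genes were called at an adjusted p under 0.05 with a change of more than 2-fold. Members below the filter were compared by exact two-sided permutation of mean CPM. The script was tested on simulated counts. DESeq2 1.42.0 and limma 3.58.1 on log2(value + 1) were alternatives, and figures were drawn with matplotlib 3.10.9.

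Coordinates and exon lengths are those of GENCODE M21 on mm10 (GRCm38), in which all 10 members were found by identifier, 9 of them in the same version. Per-kilobase levels are CPM over exon kilobases. Overlap was read from the same annotation. Depth ranged from 31300343 to 60386097 counts, and within genotypes the chi-square per gene between libraries was 131 to 572, so that the spread between libraries, not counting error, sets the precision. Named genes were all 10 members, the targeted genes, the 3 genes with the smallest p in each comparison from each of 3 further lists, and the 3 genes most like each member with a mean of at least 1 CPM. Further genes of these lists and of the same clusters are given for context and were chosen after their values were seen. The members and lists were chosen with earlier results of these data known. Sums over markers of erythroid (8.48 to 118 CPM) and megakaryocyte cells (151 to 554 CPM) were also checked, and overlap between genotypes.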

Additional observations from a re-analysis of the deposited data

How the results depend on the processing

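None of the members tested was called in any comparison under 12 other settings or with each library left out in turn. How many could be tested varied from 3 (Cdkn1c, Grb10 and Mest, at least 10 counts in every library) through 4 or 5 (only the groups compared) and 6 to 8 (most settings and libraries left out) to 9 (no filter), and Peg3, without a read, was never tested. The adjusted p nearest to the threshold were 0.0546 for Igf2 in TKO against δKO (DESeq2, 9 libraries; up to 0.946 elsewhere) and 0.0811 for Cdkn1c in TKO against WT (up to 1). The number of called genes over the whole table changed more. For TKO against WT it was 1 in edgeR, 9 with only the groups compared, 60 in DESeq2 on 9 libraries, 415 in DESeq2 on the groups compared, and 1 to 4 with 1 library left out (4 without δKO replicate 1). For TKO against δKO it was 0, and 328 and 80 in DESeq2. For δKO against WT it was 1, 77 and 48 in DESeq2, and 0 in edgeR with only the groups compared. Of the named genes, DESeq2 on the groups compared called Igf2r, Sgce, Irs2 and Cdkn2c for TKO against WT, and DESeq2 on 9 libraries called Igf2r for TKO against δKO. The cause was not tested.

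Several signs turned, all among values that did not pass the test. With the detected genes per library as a covariate, the log2 fold change for TKO against WT became 0.061 for Meg3, for TKO against δKO -0.055 for Meg3 and 0.57 for Mest, and for δKO against WT -0.17 for Cdkn1c, 0.12 for Meg3, 0.86 for Ndn, -0.22 for Mest and -0.41 for Hmga2. Upper-quartile factors turned Ndn for TKO against δKO to 0.028. With the authors' normalized values in limma, Meg3 became 0.73 for TKO against WT and 0.045 for δKO against WT, and Ndn 0.99 for TKO against δKO. With 1 library left out, Grb10 ranged from -0.13 to 0.41 for TKO against WT, and from -0.80 to 0.12 for TKO against δKO. Mest and Foxo1 ranged from -2.08 to 0.13 and from -1.81 to 0.10 for TKO against δKO, and Cdkn1c from -0.17 to 1.25 and Hmga2 from -0.30 to 1.29 for δKO against WT. Ndn ranged from -1.20 to 0.74, -0.62 to 0.99 and -1.68 to 0.78, and Meg3 from -1.87 to 5.94, -0.73 to 2.94 and -3.99 to 5.86 (TKO against WT, TKO against δKO, δKO against WT). Igf1 ranged from -2.82 to 4.26 for TKO against WT and from -1.71 to 10.01 for TKO against δKO, the lowest without TKO replicate 2. The median of the tested members ranged from -0.67 to 0.55, -0.64 to 0.19 and 0.22 to 1.77 with 1 library left out (TKO against WT, TKO against δKO, δKO against WT), and was 0.71 for TKO against WT over the 3 genes with at least 10 counts in every library. The median of all genes moved from 0.05 to -0.10 for δKO against WT with upper-quartile factors.

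With the replicate number as a block, 0 members were called in each comparison. The signs of Meg3 (1.59), Ndn (0.84) and Igf1 (-1.49) turned for TKO against WT, of Meg3 (-1.83) and Ndn (2.14) for TKO against δKO, and of Cdkn1c (-0.47) and Meg3 (3.42) for δKO against WT. The median of the tested members became 0.67 for TKO against WT, -0.98 for TKO against δKO and 1.33 for δKO against WT, and Gatm became -0.47 for TKO against δKO. Deviations from the group means of libraries with the same number correlated at -0.04 to 0.08, and those of the other pairs at -0.09 to 0.12. No pairing by number was seen, but 3 libraries per genotype are too few to exclude it.

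Members with few reads are limited by depth. A count of 0 allows 0.0504 to 0.120 CPM in a library, and Dlk1, Plagl1, H19 and Meg3 had at most 45 reads in a library.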

Other observations

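Among imprinted genes of the lists that the text has not described, with values chosen for description after they were seen, Phlda2, a maternally expressed neighbor of Cdkn1c, was at 0.504, 0.702 and 9.03 CPM in WT, 22.6, 0.766 and 1.03 CPM in δKO, and 8.82, 7.00 and 5.51 CPM in TKO. Its TKO libraries were close to each other, while WT and δKO each had 1 library at or above them. Cd81, from the same stretch of chromosome 7, was at 112 to 234 CPM in all libraries. Ube3a, on the other side of the cluster of Ndn, was at 31.7 to 76.3 CPM, while Magel2 had no count. Of the 38 imprinted genes, Ins2, Rtl1, Mirg, Dio3, Magel2, Zim1 and Slc38a4 had no count in any of the 9 libraries, as was the case for Peg3.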
